A study of Rattus norvegicus with 22 samples.

Results

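The 9 genes described here belong to the interleukin-1 (IL-1) family and to the NLRP3 inflammasome: the cytokines Il1b, Il1a and Il18, the inhibitors Il1rn and Il18bp, the receptor Il1r1, and the inflammasome genes Nlrp3, Pycard and Casp1. They were chosen by name as a family and pathway, with no threshold on their values. All 9 were among the 17172 genes of the count table, and all 9 had enough counts to be among the 12875 genes tested.

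RNA sequencing of the hippocampus on the injured side was done in adult male Sprague-Dawley rats from Envigo, with 1 library per rat. Rats with traumatic brain injury (TBI) received a moderate lateral fluid percussion (LFP), in which a fluid pulse strikes the dura through a hole in the skull over the right hemisphere. Sham rats had the same craniectomy, implanted hub and isoflurane anesthesia, but no pulse, so the sham groups carry the effects of surgery. Rats were killed at day 1 (2 sham, 4 injured) or at day 14 (4 sham, 4 injured). The study's accounts of its animals differ on the number of sham rats at day 14, and all libraries labelled as such were used. The comparisons ask how each gene differed from time-point–matched sham at each day, and how it differed between the days among injured rats.

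IL-1β, IL-1α and IL-18 are alarm cytokines of innate immunity, and in the brain microglia and infiltrating myeloid cells are well-known sources of them. IL-1β and IL-18 are made as inactive precursors that caspase-1 cuts, and caspase-1 is itself activated on the inflammasome, a complex in which the sensor NLRP3 recruits caspase-1 through the adaptor ASC, the product of Pycard. Messenger RNA levels therefore say nothing of how much mature cytokine was present.

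At day 1 the libraries held from 19189470 to 23743703 counts after sham surgery and from 17183319 to 23159858 after TBI, and at day 14 from 15506103 to 19175585 and from 15065540 to 19781459. Levels are given as CPM, a gene's counts relative to the library total after scaling, on which 1 count was worth 0.0406 to 0.0663 CPM. Summed markers of choroid plexus, the tissue that makes cerebrospinal fluid, were 10980 CPM in sham day 1 replicate 1, 2070 CPM in TBI day 14 replicate 2 and 8718 CPM in TBI day 14 replicate 3, against 117 to 247 CPM in the other 11 libraries. For the 9 genes, each fold change of day 1 is therefore also given without sham day 1 replicate 1, beside the result. A fit without a sham day 1 rat leaves 1 such rat, so its adjusted p rests on the spread of the other groups. Each fold change of day 14 or between the TBI groups is also given without TBI day 14 replicates 2 and 3. Because the tissue was taken whole, fewer cells of a type and less RNA per cell cannot be told apart.

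At day 1, 7 of the 9 genes were higher in TBI than in sham and 1, Il1a, was lower, at an adjusted p under 0.05. Over all tested genes, 11.2% were called higher and 7.93% lower in this comparison. Without sham day 1 replicate 2 these shares were 4.23% and 2.80%, with 5 members higher and 1 lower. The samples of the groups did not overlap for 6 members that were higher and for 1 that was lower, where 16.7% and 14.1% of all tested genes separated in these directions. The median log2 fold change of the members was 1.39, against -0.02 over all tested genes. At day 14, 4 of the 9 genes were still higher and 0 were lower, where 4.07% and 0.365% of all tested genes were called. The groups separated upward for 6 members at day 14, as they did for 9.13% of all tested genes, and downward for 0 (5.86% of all). The median log2 fold change of the members was 1.04 against -0.03. By edgeR at an unadjusted p under 0.05, 7 members were higher and 0 lower at day 14 (9.03% and 4.28% of all tested genes), and DESeq2 and limma-voom also called 0 lower.

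**Figure D1:**
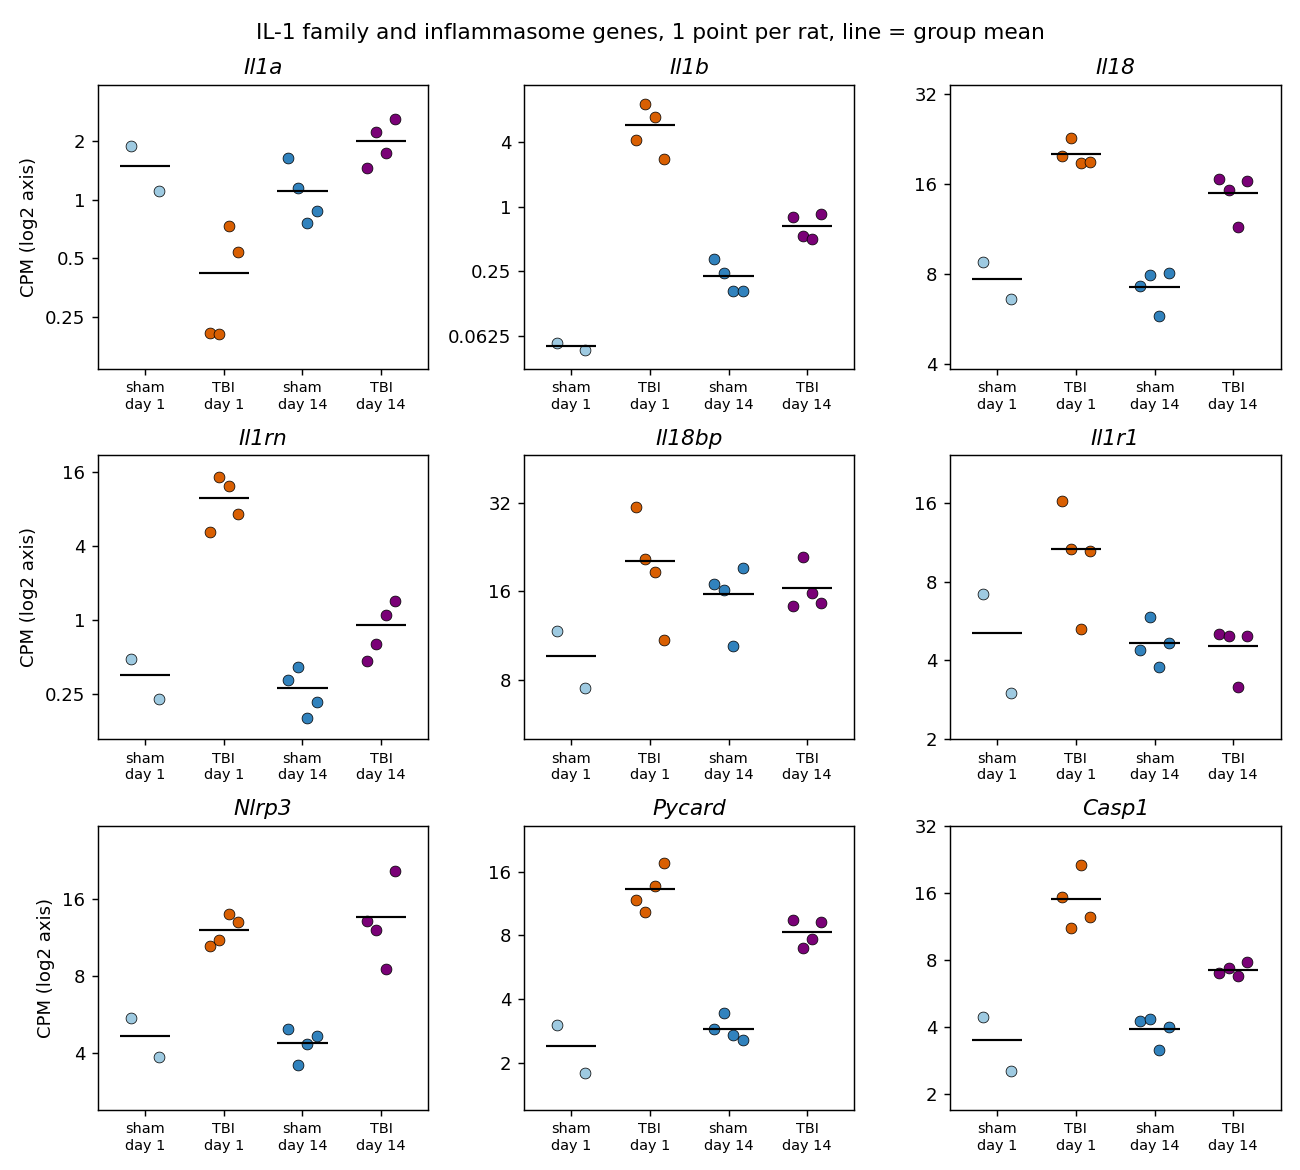
Level of each of the 9 genes in CPM on a log2 axis, with 1 point per rat and a line at the mean of each group (2 sham and 4 TBI rats at day 1, 4 and 4 at day 14). Il1b and Il1rn were highest in the TBI rats at day 1 and lower at day 14, Nlrp3 stayed between 8.55 and 20.6 CPM in all 8 TBI rats, and Il1a was lowest in the TBI rats at day 1.

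Il1b encodes IL-1β, the main secreted agonist of the IL-1 receptor. The sham rats at day 1 had 1 count each, or 0.0539 and 0.0461 CPM, while the TBI rats at day 1 had 4.20, 9.09, 6.78 and 2.78 CPM, from 81, 224, 148 and 62 counts. Every injured rat was thus far above both sham rats, and the injured rats themselves spanned a wide range. From the summed counts, 515 in TBI against 2 in sham, the level was 118-fold higher, with a 95% interval of 32.4 to 974 that covers counting error only. The fitted log2 fold change was 6.67 ± 0.71 (SE, edgeR adjusted p = 2.42e-05), a value that depends on the prior count because sham was near 0. Without sham day 1 replicate 1 it was 6.76 (adjusted p = 0.000575).

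At day 14, Il1b was at 0.328, 0.240, 0.162 and 0.163 CPM in sham (3 to 5 counts) and at 0.796, 0.527, 0.497 and 0.845 CPM in TBI (9 to 16 counts). The groups did not overlap, with all TBI rats above all sham rats, but the log2 fold change of 1.57 ± 0.47 did not pass the adjustment over all genes (adjusted p = 0.0904, edgeR). Among injured rats, Il1b fell by 3.10 on the log2 scale from day 1 to day 14 (SE 0.38, adjusted p = 3.36e-05), and every day 14 rat was below every day 1 rat. With TBI day 14 replicates 2 and 3 left out, the value at day 14 was 1.89 (adjusted p = 0.0994) and the step between the days -2.76 (adjusted p = 0.00231).

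Il1a encodes IL-1α, which signals through the same receptor and, unlike IL-1β, is active without cleavage. Its level at day 1 was 1.89 and 1.11 CPM in sham and 0.2075, 0.203, 0.733 and 0.537 CPM in TBI. All 4 injured rats lay below both sham rats, on 4 to 16 counts each. The log2 fold change was -1.81 ± 0.50 (adjusted p = 0.0214, edgeR), opposite in sign to that of Il1b. This call was lost without sham day 1 replicate 1, the library rich in choroid plexus RNA (log2 fold change -1.38, adjusted p = 0.126), and with a choroid plexus score as a covariate (-1.67, adjusted p = 0.0552).

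By day 14 the order had turned for Il1a, with 1.64, 1.14, 0.757 and 0.871 CPM in sham and 1.46, 2.23, 1.74 and 2.59 CPM in TBI. The groups overlapped, because the highest sham rat exceeded the lowest TBI rat, and the log2 fold change of 0.87 ± 0.41 was not called (adjusted p = 0.373, edgeR; 0.91 without TBI day 14 replicates 2 and 3, adjusted p = 0.712). Between the injured groups the 4 rats of day 14 were all above the 4 rats of day 1, with a log2 fold change of 2.24 ± 0.43 (adjusted p = 0.00105, edgeR). Without TBI day 14 replicates 2 and 3 this value was 2.29 (adjusted p = 0.00879). Il1a was the only 1 of the 9 genes that was called higher at day 14 than at day 1 in TBI rats, where 17.6% of all tested genes were.

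Il1a and Il1b are next to each other in the order of genes on chromosome 3, and both are read on the minus strand. The 100 bases before the start of transcription are shown for them and for Il1rn, since these are the 3 members whose TBI effect differed between the days. They are from RefSeq on the rat build GRCr8, 5′ to 3′ on the strand of the gene, at chr3:137036582-137036681 for Il1b, chr3:136990018-136990117 for Il1a and chr3:27520222-27520321 on the plus strand for Il1rn. Capitals mark the TATA box letters TATAAA, read on either strand, and in Il1a also a match to TGANTCA, the letters bound by AP-1.
Il1b: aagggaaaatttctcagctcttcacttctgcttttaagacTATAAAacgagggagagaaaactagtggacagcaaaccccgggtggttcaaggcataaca
Il1a: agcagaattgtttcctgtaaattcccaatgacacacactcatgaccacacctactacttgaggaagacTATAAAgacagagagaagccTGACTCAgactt
Il1rn: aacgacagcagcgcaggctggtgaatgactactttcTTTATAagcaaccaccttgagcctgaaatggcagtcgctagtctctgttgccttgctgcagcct

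All 9 members had a RefSeq promoter window, which ran from 250 bases before to 50 after the start. TATAAA on either strand was in the windows of these 3 genes and of no other member, and 14.2% of all 33469 rat promoter windows hold it. TGANTCA was in 2 of the 9 windows (Il1a and Il18), against 7.33% of all. The PU.1 letters GAGGAA were in 3 (Il1a, Nlrp3 and Casp1), against 27.6% of all, and the STAT letters TTCNNNGAA in 1 (Nlrp3), against 8.87%. An NF-kB motif was in 1, Il1r1, against 7.51% of all. Both strands were read and no match overlapped another. These matches describe letters in a short window, not bound sites.

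Il18 encodes IL-18, the third cytokine of the group, known for raising interferon-γ in lymphocytes and kept as a precursor in many resting cells. It was measured from 107 or more counts in every rat. At day 1 it stood at 8.78 and 6.59 CPM in sham and at 19.8, 22.8, 18.8 and 19.0 CPM in TBI. The injured rats were close to each other and all far above sham, a log2 fold change of 1.39 ± 0.21 (adjusted p = 0.000447, edgeR). Without sham day 1 replicate 1 it was 1.61 (adjusted p = 0.00132).

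The sham rats at day 14 had 7.28, 7.93, 5.79 and 8.06 CPM of Il18, and the TBI rats 16.6, 15.2, 11.5 and 16.3 CPM. The groups were again apart, and the log2 fold change was 1.04 ± 0.17 (adjusted p = 0.00112, edgeR). Without TBI day 14 replicates 2 and 3 it was 1.201 (adjusted p = 0.00159). Il18 was thus called higher at both days, and the difference between the 2 effects, 0.35 ± 0.26 on the log2 scale, was not called (adjusted p = 0.487). The step from TBI day 1 to TBI day 14 was -0.43 ± 0.16 (adjusted p = 0.0434, edgeR), and the call was lost when any 1 of the 8 TBI rats was left out, with adjusted p from 0.0510 to 0.145. Without TBI day 14 replicates 2 and 3 it was -0.26 (adjusted p = 0.330).

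Il1rn encodes the IL-1 receptor antagonist, which occupies the receptor without signaling. In sham at day 1 it was at 0.485 and 0.231 CPM, from 9 and 5 counts, and in TBI at 5.24, 14.5, 12.2 and 7.25 CPM, from 101 to 357 counts. All injured rats were above sham by a wide margin, with a log2 fold change of 4.77 ± 0.61 (adjusted p = 0.000112, edgeR), or 5.37 without sham day 1 replicate 1 (adjusted p = 0.00101). The antagonist and Il1b thus had the 2 highest fitted fold changes of the 9 genes at day 1.

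At day 14, sham rats had 0.328, 0.421, 0.162 and 0.218 CPM of Il1rn and TBI rats had 0.464, 0.644, 1.09 and 1.43 CPM, which is 3 to 7 and 7 to 27 counts. The lowest TBI rat was just above the highest sham rat. The log2 fold change of 1.70 ± 0.50 missed the threshold in edgeR (adjusted p = 0.0773) and passed it in DESeq2 (1.72, adjusted p = 0.0239). Among TBI rats, Il1rn fell by 3.40 from day 1 to day 14 on the log2 scale (SE 0.41, adjusted p = 2.64e-05), with no overlap between the days. The value at day 14 without TBI replicates 2 and 3 was 1.80 (adjusted p = 0.185) and the step -3.30 (adjusted p = 0.00148).

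Il18bp encodes the IL-18 binding protein, a secreted decoy that holds IL-18 away from its receptor. Its levels at day 1 were 11.7 and 7.52 CPM in sham and 31.0, 20.6, 18.6 and 10.9 CPM in TBI. TBI replicate 4 lay below the higher sham rat, so the groups overlapped. The log2 fold change was 1.07 ± 0.35, just past the threshold (adjusted p = 0.0465, edgeR), and it was not called by limma-voom (adjusted p = 0.0698), against the sham rats of day 14 (0.37, adjusted p = 0.289), or without sham day 1 replicate 2 (0.78, adjusted p = 0.353) or TBI day 1 replicate 1 (0.80, adjusted p = 0.0885), replicate 2 (1.07, adjusted p = 0.0722) or replicate 3 (1.12, adjusted p = 0.0608). Without sham day 1 replicate 1 it was 1.43 and still called (adjusted p = 0.0438).

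At day 14, Il18bp was at 17.0, 16.1, 10.4 and 19.3 CPM in sham and 14.3, 21.0, 15.8 and 14.6 CPM in TBI. The groups lay over each other, and the log2 fold change was 0.06 ± 0.28 (adjusted p = 0.975, edgeR), or -0.10 without TBI day 14 replicates 2 and 3. Between the TBI groups it was -0.31 ± 0.27 (adjusted p = 0.401), or -0.47 without these (adjusted p = 0.358). Il18 was thus called at both days and its decoy at day 1 alone, and whether the effects on the 2 genes differ was not tested.

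The inhibitor and its cytokine were also set against each other within each library, as the log2 ratio of their counts plus 0.5, which does not depend on library size. The Il1rn to Il1b ratio averaged 0.80 ± 0.44 (SD, n = 4) in TBI day 1 and 0.34 ± 0.80 (n = 4) in TBI day 14. Its values in the 4 TBI rats of day 14 ran from -0.74 to 1.10 and covered all but 1 of the TBI rats of day 1. The difference of -0.46 gave p = 0.4 in a two-sided exact permutation test (70 arrangements, smallest possible p = 0.0286; 0.657 after adjustment over the 2 ratios). Sham rats had 2.66 and 1.87 at day 1 and 0 to 0.74 at day 14, on 9 counts or fewer of either gene.

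The Il18bp to Il18 ratio was higher in the sham rats of day 14 than in any other group. It was 1.22, 1.02, 0.84 and 1.26 there, against -0.22, 0.46, 0.46 and -0.16 in the TBI rats of the same day, and the 2 groups did not overlap. In sham day 1 it was 0.42 and 0.19, and in TBI day 1 it was 0.64, -0.15, -0.02 and -0.80, the widest spread of the 4 groups. Between TBI day 14 and TBI day 1 the mean differed by 0.21, within the spread between rats (exact permutation p = 0.657, adjusted 0.657). The contrast with sham was not tested.

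**Figure D2:**
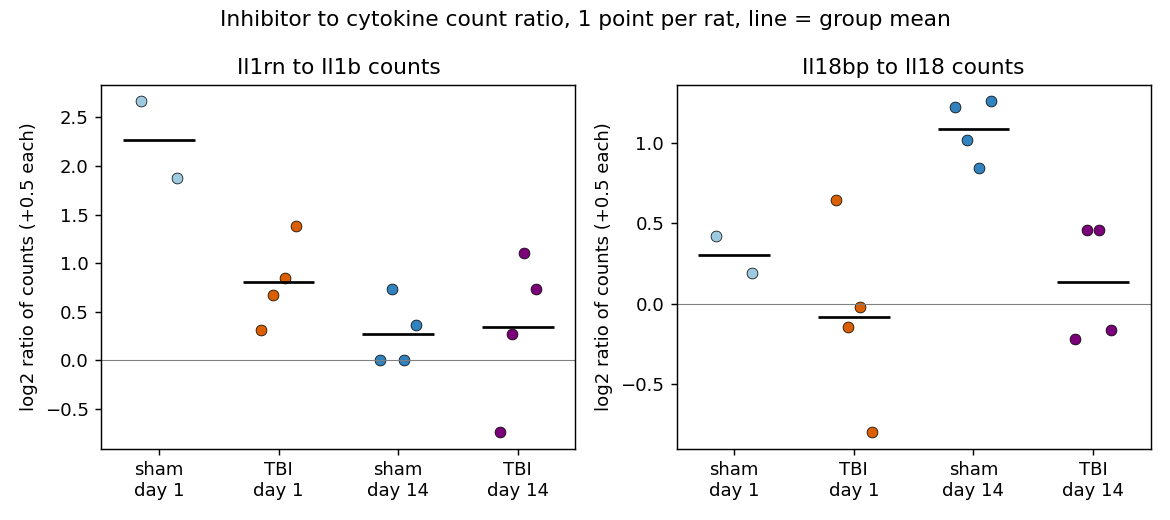
Log2 ratio of the counts of the inhibitor to those of the cytokine, each plus 0.5, in every rat, with a line at the group mean. The Il1rn to Il1b ratio of the TBI rats overlapped between the days, and the Il18bp to Il18 ratio of the 4 sham rats at day 14 (0.84 to 1.26) lay above that of the 4 TBI rats of that day (-0.22 to 0.46).

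Il1r1 encodes the signaling receptor for IL-1α and IL-1β, well known in brain endothelium and in some neurons. At day 1 it was at 7.17 and 3.00 CPM in sham and at 16.2, 10.7, 5.27 and 10.5 CPM in TBI. The sham rats differed from each other by more than for most members, the higher being the library rich in choroid plexus RNA, and TBI replicate 3 fell between them. The log2 fold change of 1.08 ± 0.41 was not called (adjusted p = 0.0771, edgeR). It was called in DESeq2 (1.07, adjusted p = 0.0380), against the 4 sham rats of day 14 (1.19, adjusted p = 0.00786), without sham day 1 replicate 1 (1.83, adjusted p = 0.0220) and without TBI day 1 replicate 3 (1.30, adjusted p = 0.0251). Without sham day 1 replicate 2 it was 0.57 (adjusted p = 0.533).

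Levels of Il1r1 at day 14 were 4.39, 5.89, 3.79 and 4.68 CPM in sham and 5.04, 4.98, 3.18 and 4.96 CPM in TBI. The groups overlapped almost fully (log2 fold change -0.05 ± 0.33, adjusted p = 0.984, edgeR, or 0.12 without TBI replicates 2 and 3). TBI replicate 3 was low, while the other 3 injured rats were within 0.1 CPM of each other. From TBI day 1 to TBI day 14, Il1r1 fell by 1.23 on the log2 scale (SE 0.32, adjusted p = 0.00768), and without TBI day 14 replicates 2 and 3 the value was -1.07 (adjusted p = 0.0819).

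Nlrp3 encodes the sensor around which this inflammasome forms. At day 1 its level was 5.50 and 3.87 CPM in sham and 10.5, 11.1, 13.9 and 13.1 CPM in TBI. Both groups were tight and apart, with a log2 fold change of 1.38 ± 0.30 (adjusted p = 0.00635, edgeR). The call was lost without sham day 1 replicate 2 (1.14, adjusted p = 0.102) and held without replicate 1 (1.65, adjusted p = 0.0124).

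At day 14, Nlrp3 was at 4.98, 3.605, 4.33 and 4.68 CPM in sham and at 13.1, 12.1, 8.55 and 20.6 CPM in TBI. No sham rat reached the lowest TBI rat, and the log2 fold change was 1.63 ± 0.24 (adjusted p = 0.000646, edgeR). The highest rat, TBI replicate 4, did not carry the result, since the value without it was 1.35 and still called, and without TBI day 14 replicates 2 and 3 it was 1.96 (adjusted p = 0.000224). Among the TBI rats the change between the days was 0.16 ± 0.23 (adjusted p = 0.605), or 0.51 without these 2 (adjusted p = 0.128), so for Nlrp3 no difference between the days was detected.

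Pycard encodes ASC, the adaptor that links sensor and protease. The sham rats at day 1 had 3.02 and 1.80 CPM and the TBI rats 11.8, 10.3, 13.7 and 17.5 CPM. All injured rats were well above sham (log2 fold change 2.47 ± 0.29, adjusted p = 5.45e-05, edgeR; 2.88 without sham day 1 replicate 1, adjusted p = 0.000223). At day 14 the levels were 2.88, 3.42, 2.70 and 2.56 CPM in sham and 9.42, 6.97, 7.65 and 9.29 CPM in TBI, again without overlap. The log2 fold change was 1.53 ± 0.22 (adjusted p = 0.000459, edgeR), and without TBI day 14 replicates 2 and 3 it was 1.71 (adjusted p = 0.00126). Every TBI rat of day 14 was below every TBI rat of day 1, a change of -0.68 ± 0.20 (adjusted p = 0.0171, edgeR), which was not called without TBI day 14 replicates 2 and 3 (-0.48, adjusted p = 0.195) or without TBI day 1 replicate 4 (-0.52, adjusted p = 0.0603), TBI day 14 replicate 2 (-0.60, adjusted p = 0.0558) or TBI day 14 replicate 3 (-0.61, adjusted p = 0.0508).

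Casp1 encodes caspase-1, the protease that cuts the precursors of IL-1β and IL-18. It lies beside its paralogs Casp4 and Casp12. How reads shared between such copies were counted was not tested, so its values, like those of Casp4, carry that uncertainty. At day 1, sham rats had 4.42 and 2.54 CPM of Casp1 and TBI rats had 15.3, 11.1, 21.4 and 12.5 CPM. The groups were far apart, with a log2 fold change of 2.12 ± 0.30 (adjusted p = 0.000246, edgeR), or 2.57 without sham day 1 replicate 1 (adjusted p = 0.000575). At day 14, sham rats had 4.26, 4.33, 3.14 and 3.97 CPM and TBI rats had 6.97, 7.38, 6.76 and 7.87 CPM. All TBI rats remained above all sham rats, in a narrow range.

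The day 14 effect on Casp1 was 0.88 ± 0.23 on the log2 scale (adjusted p = 0.0371, edgeR). It missed the threshold in limma-voom (0.90, adjusted p = 0.0980) and when any rat but TBI replicate 3 was left out, with values of 0.79 to 0.94. Without TBI day 14 replicates 2 and 3 it was 0.94 (adjusted p = 0.126). From TBI day 1 to TBI day 14 Casp1 fell by 1.06 on the log2 scale (SE 0.22, adjusted p = 0.00168), and the days did not overlap. The step was still called with TBI day 14 replicates 2 and 3 left out (adjusted p = 0.0290).

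**Figure D3:**
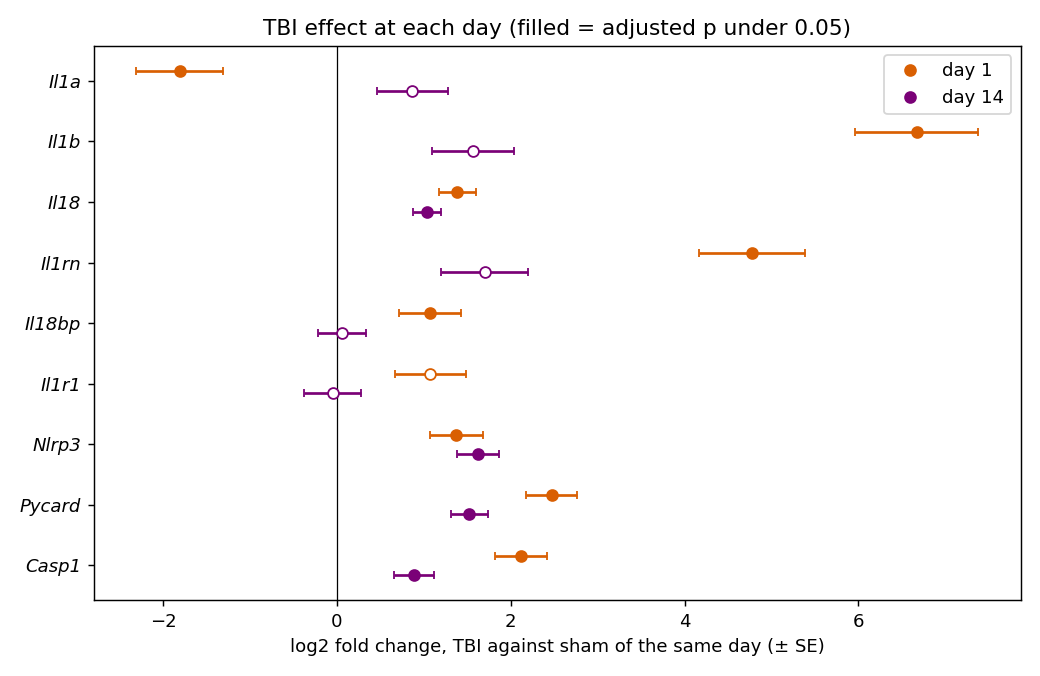
Log2 fold change of each gene in TBI against sham of the same day with its SE, from edgeR, at day 1 (2 sham, 4 TBI rats) and day 14 (4 and 4), with filled points for an adjusted p under 0.05. Il18, Nlrp3, Pycard and Casp1 were called at both days, Il1b, Il1rn and Il18bp at day 1 alone, and Il1a lay on the negative side at day 1 (-1.81).

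Between TBI day 14 and TBI day 1, 6 members fell (Il1rn, Il1b, Il1r1, Casp1, Pycard and Il18) and 1 rose (Il1a), where 21.9% and 17.6% of all tested genes were called in these directions, and the same numbers of members had no overlap (19.1% and 16.7% of all). The median log2 change of the members was -0.68. With any 1 TBI rat left out, 4 to 5 members were called lower, where 18.3% to 24.1% of all tested genes were. Without TBI day 14 replicates 2 and 3, 3 members were called lower in place of 6. The share of all tested genes called lower also fell, from 21.9% to 13.3%.

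The test of the difference itself, the TBI effect at day 1 minus that at day 14, called 2 members higher and 1 lower, where 2.24% and 1.44% of all tested genes were. In limma-voom 0 members were called higher and 1 lower, where 1.38% and 0.777% of all tested genes were, so Il1b and Il1rn were not called there. Il1b had a difference of 5.10 ± 0.90 on the log2 scale (adjusted p = 0.00810, edgeR), again on a sham day 1 level of 1 count per rat. Il1rn had 3.07 ± 0.79 (adjusted p = 0.0445) and Il1a -2.68 ± 0.65 (adjusted p = 0.0340). Without the 3 libraries rich in choroid plexus RNA the differences were 4.86 for Il1b (adjusted p = 0.0727), 3.55 for Il1rn (adjusted p = 0.111) and -2.31 for Il1a (adjusted p = 0.172), so none of the 3 was called. Leaving out 1 rat at a time, Il1b kept its call in 14 of 14 fits, Il1a in 7 and Il1rn in 4. For Casp1 the difference was 1.24 ± 0.36 (adjusted p = 0.0729), and for the other 5 members adjusted p was from 0.145 (Pycard) to 0.744 (Nlrp3).

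The time-matched sham groups were themselves compared, since each effect is read against them. In edgeR, 0 members were called between sham day 1 and sham day 14, where 11.3% of all tested genes were called higher and 7.88% lower at day 1. At an unadjusted p under 0.05 edgeR and DESeq2 each had 0 members higher and 1 lower (in edgeR 19.4% and 15.4% of all tested genes), Il1b (log2 difference -2.01 ± 0.86, adjusted p = 0.112 in edgeR), and limma-voom had 0. Both sham day 1 rats had less Il1b than any of the sham rats of day 14, on 1 count against 3 to 5, and such separation downward was seen for 20.1% of all tested genes. The log2 difference for Il18bp was -0.70 ± 0.35 (adjusted p = 0.167, edgeR).

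Other genes of the pathway, taken as whole lists, were read in the same fits. Their counts stand against the shares over all tested genes given above. In the order below, the lists held 3, 6, 10, 2 and 11 calls at day 1 and 1, 2, 7, 2 and 5 at day 14. Without sham day 1 replicate 1 a single sham rat is left at day 1, and some of the day 1 counts rose and others fell. Without TBI day 14 replicates 2 and 3 the lists held 1, 2, 8, 2 and 5 calls at day 14. In that fit 3.69% of all tested genes were called higher and 0.125% lower. Of 7 tested ligands and receptors of the wider IL-1 family, 2 were higher and 1 lower at day 1 (median log2 fold change 0.63), and 1 was higher at day 14 (median 0.45, or 0.16 with Il1r2 set at the lower end of its counting interval). Il1r2, the decoy receptor that binds IL-1 without signaling, had 1 and 0 counts in sham day 1 and 84, 323, 56 and 48 in TBI, a ratio of 234 by summed counts (95% interval 41.7 to 9242, counting error only). It fell back to 1 to 6 counts in the TBI rats of day 14. Sigirr, which dampens signaling by this receptor family, rose by 1.18 ± 0.36 at day 1 on the log2 scale (adjusted p = 0.0332, edgeR), and Il1rap, the accessory chain of the receptor, fell by 0.64 with overlap between the groups (SE 0.19, adjusted p = 0.0308). Both calls were lost without sham day 1 replicate 2 (0.73 for Sigirr and -0.26 for Il1rap), TBI day 1 replicate 1 (1.11 and -0.60) or TBI day 1 replicate 3 (1.09 and -0.61). Il1rl1, the receptor for IL-33, rose at day 14 (1.64 ± 0.31, adjusted p = 0.00461, edgeR).

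Of 19 genes of IL-1 receptor signaling, 6 were higher and 0 lower at day 1 (median log2 fold change 0.38), and 2 were higher and 0 lower at day 14 (median 0.08). At an unadjusted p under 0.05, 9 and 8 of them passed in either direction, where 34.4% and 13.3% of all tested genes did. Myd88, the adaptor of the receptor, rose by 1.67 ± 0.20 at day 1 (adjusted p = 6.18e-05, edgeR) and by 0.83 ± 0.15 at day 14 (adjusted p = 0.00416). Nfkbiz, a nuclear partner of NF-kB that IL-1 is known to induce, rose by 1.97 ± 0.25 and 1.11 ± 0.20 on the log2 scale (adjusted p = 0.00012 and 0.00385). Irak4, the first kinase of the cascade, Rela, an NF-kB subunit, and Irak3, a brake on the kinases, were called at day 1 alone. They rose by 0.86, 0.69 and 1.00 there, and all 3 calls were lost without sham day 1 replicate 2 (0.61, 0.44 and 0.83). At day 14 Irak4 was still apart, at 5.73 to 6.23 CPM in sham and 8.38 to 9.29 CPM in TBI. Rela was too, at 34.9 to 41.3 and 44.4 to 54.3 CPM, while Irak3 overlapped, at 4.00 to 8.65 and 6.26 to 9.87 CPM.

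Among 15 tested inflammasome sensors and partners outside the 9 genes, 10 were higher and 0 lower at day 1 (median log2 fold change 1.05), and 7 were higher and 0 lower at day 14 (median 0.78, or 0.72 with Nlrp12 at the lower end of its interval). Mefv, which encodes the sensor pyrin, rose by 2.64 ± 0.45 and 1.98 ± 0.34 on the log2 scale (adjusted p = 0.00118 and 0.00215, edgeR). Card9, an adaptor of myeloid cells, rose by 1.39 ± 0.21 and 1.26 ± 0.16 (adjusted p = 0.000463 and 0.000244), and Ctsb, a lysosomal protease linked to NLRP3 activation, by 1.05 ± 0.19 and 0.72 ± 0.15 (adjusted p = 0.00196 and 0.00998). At day 1 Gbp2, an interferon-induced GTPase, rose by 3.40 ± 0.69 (adjusted p = 0.00362, edgeR), with the call lost without sham day 1 replicate 2 (3.11). Its groups were also apart at day 14, at 4.87 to 8.65 CPM in sham and 12.8 to 38.0 CPM in TBI. Nlrp12 went from 1 count in the sham day 1 rats together to 100 in the TBI rats (ratio 45.7, 95% interval 8.02 to 1823, counting error only). The surface receptors Tlr4 and Tlr2, which prime the transcription of Nlrp3 and Il1b, were among the genes higher at day 14 (1.97 ± 0.37 and 1.23 ± 0.25, adjusted p = 0.00440 and 0.00846, edgeR). They were not particular to that day. Tlr4 averaged 1.56 CPM in sham day 1 and 5.06 CPM in TBI day 1, and Tlr2 3.77 and 11.2 CPM.

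Of 6 tested genes of pyroptosis, the lytic death that follows inflammasome activation, 2 were higher and 0 lower at each day (medians 0.91 and 0.74). Casp4, the sensor of cytosolic lipopolysaccharide beside Casp1 on chromosome 8, was at 3.39 and 2.77 CPM in sham day 1 and at 30.2, 30.4, 21.3 and 21.9 CPM in TBI, a log2 fold change of 3.07 ± 0.28 (adjusted p = 7.9e-06, edgeR). Its log2 fold change at day 14 was 1.59 ± 0.20 (adjusted p = 0.000202). Gsdmd, the pore former cut by caspase-1, was called at day 14 (0.76 ± 0.15, adjusted p = 0.00487, edgeR). Ninj1, which ruptures the dying cell membrane, was called at day 1 (0.89 ± 0.24, adjusted p = 0.0182, edgeR), but not without sham day 1 replicate 2 (0.50). Neither was particular to its day. Gsdmd was at 9.04 and 12.9 CPM in sham day 1 and at 14.2 to 17.9 CPM in TBI day 1. Ninj1 was at 14.9 to 18.9 CPM in sham day 14 and at 20.8 to 23.0 CPM in TBI day 14.

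Of 13 tested genes known to respond to IL-1, and to other inflammatory signals as well, 10 were higher and 1 lower at day 1 (median log2 fold change 3.04), and 5 were higher and 0 lower at day 14 (median 1.28). Lcn2, an iron-binding acute-phase protein, rose by 7.25 ± 0.63 on the log2 scale at day 1 and by 2.77 ± 0.47 at day 14 (adjusted p = 6.15e-06 and 0.002, edgeR). Socs3, a feedback inhibitor of cytokine signaling, rose by 5.95 ± 0.59 and 2.09 ± 0.42 (adjusted p = 1.42e-05 and 0.00647), although limma-voom did not call it at day 14 (adjusted p = 0.215). Bcl3, a nuclear regulator of NF-kB, rose by 4.92 ± 0.41 and 2.09 ± 0.28 (adjusted p = 5.63e-06 and 0.000315). The chemokine Ccl2 went from 3 counts in each sham rat to 850 to 4462 in the TBI rats of day 1, a ratio of 603 by summed counts (95% interval 277 to 1644, counting error only), and Cxcl1, a neutrophil attractant, rose by 5.58 ± 0.74 (adjusted p = 0.000156). Icam1, an adhesion molecule of vessels, and Zc3h12a, an RNase that limits cytokine messages, were higher at day 14 (1.28 ± 0.22 and 1.17 ± 0.27, adjusted p = 0.0025 and 0.0208). Their levels also differed at day 1. Icam1 averaged 6.27 CPM in sham day 1 and 26.5 CPM in TBI day 1, and Zc3h12a 3.84 and 10.5 CPM. The call of Zc3h12a was lost in 5 of 8 fits without 1 rat, those without sham day 14 replicate 2, 3 or 4 or TBI day 14 replicate 2 or 4 (1.07 to 1.25 over the 8 fits).

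**Figure D4:**
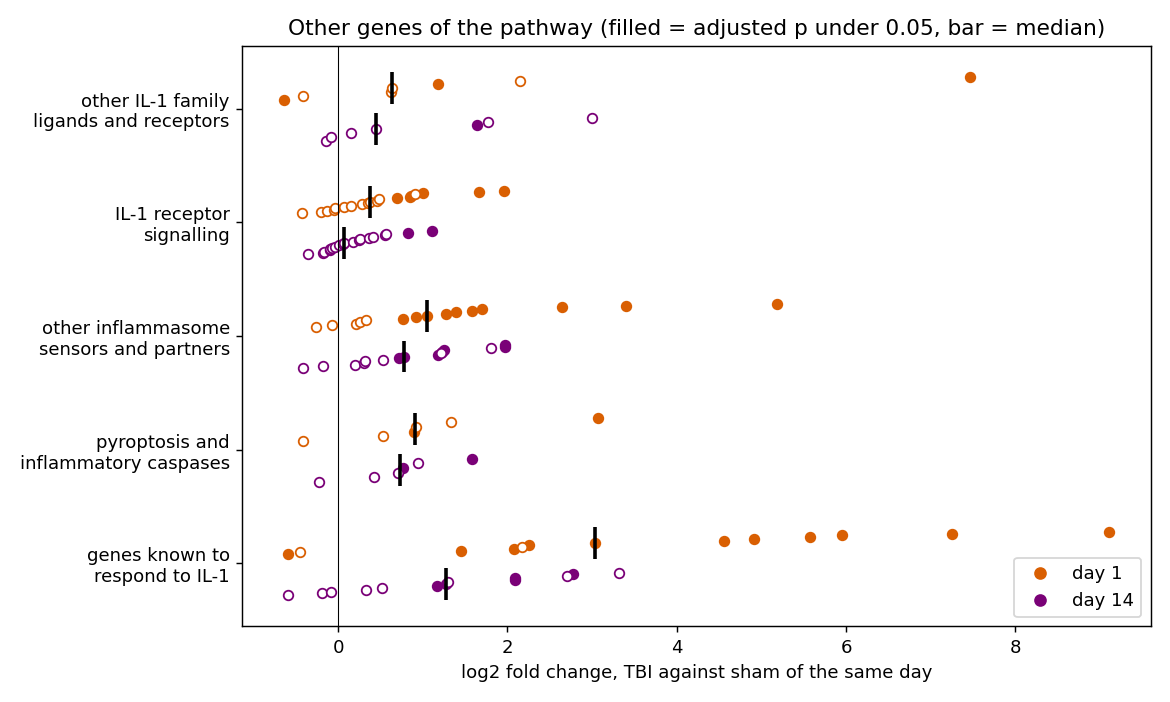
Log2 fold change of every tested gene of the 5 other lists in TBI against sham of the same day, at day 1 and day 14, with filled points for an edgeR adjusted p under 0.05 and a bar at the list's median. The genes known to respond to IL-1 had the highest median at each day (3.04 and 1.28), and each list's median was lower at day 14 than at day 1.

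Markers of the cells that could carry these genes moved with the groups. The 12 microglial markers summed to 499 and 774 CPM in sham day 1, 846 to 983 CPM in TBI day 1, 533 to 700 CPM in sham day 14 and 1183 to 2024 CPM in TBI day 14. Of these, 3 were higher and 2 lower at day 1, with Tyrobp up and Tmem119 and P2ry12 down by 1.90 and 0.88 on the log2 scale, and 10 were higher and 0 lower at day 14. The 9 monocyte and macrophage markers summed to 165 and 208 CPM, 686 to 1179 CPM, 156 to 196 CPM and 126 to 232 CPM in the same order, and 5 of 9 were higher at day 1 against 1 of 9 at day 14. Fn1, Cd44 and Vcan made up most of this sum in TBI day 1, with means of 484, 234 and 85.2 CPM. Each other gene of the list averaged 19.7 CPM or less there. The 11 neutrophil markers summed to 4.47 and 10.3 CPM, 29.8 to 80.6 CPM, 5.64 to 7.73 CPM and 15.5 to 27.8 CPM, of which Csf3r, also known in microglia, held a mean of 18.5 CPM in TBI day 14 against 5.33 CPM in sham day 14. S100a8 was at 0.0775 and 0.101 CPM in these groups and Cxcr2 at 0.0380 and 0.0272 CPM, while S100a9 and Mmp8 were at 0.580 and 0.374 CPM against 0.245 and 0.0271 CPM. Np4 was at 0 in all TBI rats and Elane at 0 in all rats but those of TBI day 1. The 9 neuronal markers summed to 8224 and 10250 CPM, 3000 to 6526 CPM, 6973 to 8899 CPM and 5791 to 7152 CPM. Of the other marker lists, 1 of 7 astrocyte genes was higher at each day, 2 of 6 oligodendrocyte genes were lower at day 1, 1 of 5 endothelial genes was higher at day 1, and 2 of 5 T and NK cell genes were higher at day 1 and 1 at day 14. Over all tested genes, 11.2% were higher and 7.93% lower at day 1 and 4.07% higher at day 14. The 5 red blood cell genes summed to 264 and 533 CPM, 437 to 1077 CPM, 93.4 to 245 CPM and 94.8 to 151 CPM, with none called in TBI against sham at either day by edgeR. The part of these shifts in the members' values was not tested.

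Across the 14 rats the members also differed in which other genes they ran with, as Pearson correlations of log2 CPM, which follow the group differences and are given as a description. The 3 nearest genes of Il1b were Eif3b, Ccl2 and Hspb1 (r = 0.979, 0.977 and 0.976), and those of Il1rn were LOC100909675, Sdc1 and Runx3 (0.980, 0.979 and 0.974). For Nlrp3 they were Dock8, Cd180 and Tgfb1 (0.967, 0.966 and 0.963), for Pycard Irak4, S100a4 and Lgals3 (0.983, 0.981 and 0.971), for Il18 S100a4, Myo1g and Ifi47 (0.983, 0.982 and 0.978), and for Casp1 Arpc1b, Fcgr3a and Rpl3 (0.982, 0.976 and 0.976). Il1a ran closest to Rasgrp3, Ccdc80 and Acsm5 (0.933, 0.931 and 0.902), Il1r1 to Avp, Gpx2 and Olfml2a (0.932, 0.918 and 0.915), and Il18bp to Zfp513, Dxo and Arrdc1 (0.963, 0.958 and 0.956). Among the members themselves, Il1b and Il1rn correlated at 0.949, Il18 and Pycard at 0.943, and Il1a with Il1b at -0.644.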

How the data were processed

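RNA-seq libraries of the hippocampus of 14 rats were used. The authors aligned reads to rn5 with STAR 2.4.2a and counted them per gene with featureCounts 1.5.0, and the deposited values are counts without normalization. The strand setting of the counting was not given in the sources used here. Samples were grouped by their labels, which give numbered replicates. That each is a separate rat was taken from the study's design, and replicates differed by more than counting noise. The 17172 genes were filtered with filterByExpr to 12875 and scaled by TMM factors, and a quasi-likelihood model with 1 mean per group was fitted over all 14 rats with edgeR 4.0.16 in R 4.3.3. P-values are two-sided and Benjamini-Hochberg adjusted over all tested genes, with a threshold of 0.05. The study used limma-voom, which is an alternative here (limma 3.58.1), as are DESeq2 1.42.0, other factors, no filter, a replicate block, other sham baselines, only the samples compared, a choroid plexus covariate and leaving out each rat. Fits without the 3 libraries rich in choroid plexus RNA were added after seeing the data.

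Members, lists and tests were chosen with earlier results of these data known. Text names all 9 members, up to 5 called genes of each pathway list with the smallest adjusted p at each day, and the 3 nearest genes of each member. Log2 CPM used a prior count of 2. Marker lists were named for the cell types that the text gives, and those of astrocytes, oligodendrocytes, endothelium, red blood cells and T and NK cells were summed as well. In simulated data for TBI against sham at day 1 (12755 genes), edgeR recovered 50 of 100 genes changed 2-fold and 96 of 100 changed 4-fold, with 7 false calls. Changes were placed only in genes above a minimum mean count, and no other gene differed between the groups. These rates therefore do not give the power for each member. Promoters came from RefSeq (GRCr8). The H3K4me3 peak lists are on rn5 and were not used here. Figures were drawn with matplotlib 3.10.9. The study's methods give 2 sham rats at day 14 and its results 4; the 4 labelled libraries were all used.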

Additional observations from a re-analysis of the deposited data

Results flagged for a closer look

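Il1r1 in TBI day 14 replicate 3 stood at a log2 CPM of 1.72, far from the other 3 rats of its group, whose values were nearly equal (the gap was 0.966 of the group's range). Of 33 groups of 4 rats checked in this way, 1 stood out, and chance gives about 1 in 20. That library is also 1 of the 3 rich in choroid plexus RNA, and the part of this in the low value was not tested.

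The TBI effect differed between the days for 3 members by the edgeR test of the difference (day 1 minus day 14): Il1b by 5.10 on the log2 scale (adjusted p = 0.00810), Il1rn by 3.07 (adjusted p = 0.0445) and Il1a by -2.68 (adjusted p = 0.0340). Il1a is the 1 member with a negative difference among these, lower in 4 of 4 TBI rats than in both sham rats at day 1, while at day 14 the TBI and sham rats overlapped. The calls of Il1a and Il1rn were often lost when 1 rat was left out, as given above. That of Il1b held in each of these fits. It was lost in limma-voom and without the 3 libraries rich in choroid plexus RNA.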

How the results depend on the processing

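There were 26 fits, counting the main one. In the others, 629 of 725 values of the members kept their direction and their side of the threshold. Members called lower at day 1 went from 1 to 0 with the choroid plexus covariate, with only the samples compared, and without sham day 1 replicate 1 (range 0 to 1 with 1 rat left out). For the difference between the effects, members called higher went from 2 to 0 in limma-voom and without the 3 choroid plexus libraries, and to 1 with the covariate (range 1 to 2 with 1 rat left out), and members called lower from 1 to 0 with the covariate and without these libraries (range 0 to 1). Members lower in TBI day 14 than in TBI day 1 went from 6 to between 4 and 5 with 1 TBI rat left out. They went to 3 without TBI day 14 replicates 2 and 3, a choice made after seeing the data. The share of all tested genes called lower went from 21.9% to 13.3% with it.

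The replicate number as a block gave 1 member higher and 0 lower for the difference between the effects, called Il1r1 at day 1 (1.30, adjusted p = 0.0215), lost Casp1 at day 14 (0.88, adjusted p = 0.0678), and turned uncalled sham differences of Il18 (-0.0030) and Il1r1 (-0.21). The numbers do not mark shared animals, and deviations of same-numbered rats correlated from -0.17 to 0.24, so no pairing was taken from them.

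List counts at day 1 with only the samples compared were 1 for the wider IL-1 family (3 in the report), 2 for receptor signaling (6), 6 for other inflammasome genes (10) and 1 for pyroptosis (2). Against sham day 14 they were 5, 10 and 5 for the family, signaling and pyroptosis, and 5 for pyroptosis against all 6 sham rats. Shares over all tested genes moved too, from 11.2% higher and 7.93% lower to 4.38% and 0.739% with only the samples compared. They were 25% and 21% against sham day 14, and 18.2% and 16.2% against all 6 sham rats. At day 14, DESeq2 gave 2 for the family and 4 for signaling, and the samples compared gave 2, 5 and 4 for family, signaling and pyroptosis (1, 2 and 2 in the report). The shares over all tested genes at day 14 went from 4.07% higher and 0.365% lower to 5.23% and 0.924% in DESeq2. With the samples compared they were 7.38% and 1.68%. With 1 rat left out, day 1 counts ran from 1 to 3, 2 to 8, 4 to 10 and 1 to 4 for the 4 lists, the lowest without sham day 1 replicate 2.

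Values near 0 that changed sign, none of them called, were Il18bp at day 14 (-0.10 with the covariate and -0.10 without TBI day 14 replicates 2 and 3; -0.091 to 0.18 with 1 rat left out), Il1r1 at day 14 (0.12 without these; -0.14 to 0.11), Nlrp3 between TBI days (-0.11 to 0.35) and as the difference between effects (-0.48 to 0.024), the Il18bp to Il18 ratio (-0.026 to 0.45), and between the sham groups Il1r1 (-0.027 in limma-voom, -0.090 with the covariate; -0.64 to 0.61), Il18 (-0.14 to 0.27), Il1rn (-0.26 to 0.79), Nlrp3 (-0.18 to 0.32), Pycard (-0.68 to 0.063) and Casp1 (-0.63 to 0.17). The cause of these shifts was not tested. Leaving out a sham day 1 rat leaves 1, which is assumed to vary like the other groups. Il1b and Il1rn rest on 1 to 9 counts per rat in sham, and Il1a on 4 to 16 in TBI day 1, so small effects on them were not detectable at this depth.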
